A study of Mus musculus with 4 samples.

Results

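Microglia, the resident macrophages of the brain parenchyma, were examined in single-nucleus RNA sequencing of the posterior mouse hindbrain. They comprised 969 of 39461 kept nuclei (2.46%). Members were the nuclei that the deposited table of nuclei marked as passing quality control and annotated as Tmem119.Immune, and their counts of unique molecular identifiers (UMIs) were summed within each library. All of them lay in 1 deposited cluster. The question put to these nuclei was which genes mark them in this tissue and whether their expression differed once AgRP neurons had been activated and POMC neurons silenced together.

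The tissue was the piece of hindbrain that holds the area postrema (AP) and the nucleus tractus solitarius (NTS). Control mice are given as WT in the labels, and the study's methods describe its controls as carrying both receptor alleles but neither Cre nor Dre. These mice and AgRP-Gq;POMC-Gi mice, which carried AgRP-IRES-Cre+/- with hM3DGqfl/- as well as POMC-Dre+/- with hM4DGifl/-, all received the designer drug CNO at 3 mg per kg, and tissue was taken 1 h later in the absence of food. In AgRP-Gq;POMC-Gi mice the activating receptor hM3DGq depends on Cre in AgRP neurons and the inhibiting receptor hM4DGi on Dre in POMC neurons, so neither receptor was directed to microglia. Mice were adult (12 to 20 weeks) and of both sexes. Each group had 2 libraries, named here replicates 1 and 2, and values of a group are given in that order. Where pairs of values are set against each other, the control libraries come first, and lists of 4 values run from control to AgRP-Gq;POMC-Gi. Samples of a condition were pooled. The design text gives 2 mice per group, whereas a sample list of the study gives more, of both sexes. Which mice a library holds is not stated. The libraries of a group differed in sex-linked RNA, those of AgRP-Gq;POMC-Gi so widely that they were not equal splits of 1 pool. The p-values measure the spread between libraries, in which mice, sex and technical steps cannot be told apart.

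As background, microglia arise from yolk sac progenitors, depend on the receptor CSF1R for survival, and keep their tissue identity through TGF-beta signals from their surroundings. At rest they carry purinergic receptors with which their processes sense nucleotides released by neurons, and they clear debris and prune synapses with the help of complement. Microglia also carry the glucocorticoid receptor, through which circulating corticosterone induces a well-known set of target genes. A second kind of macrophage, the border macrophages, lives along vessels and meninges and shares the myeloid genes of microglia, but carries *Mrc1* and *F13a1* in place of *Tmem119* and *Sall1*.

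The 4 libraries contributed 244 and 260 control nuclei and 225 and 240 AgRP-Gq;POMC-Gi nuclei, with 521200, 525204, 423830 and 456757 UMIs in all. The median control nucleus held 2032 and 1869.5 UMIs and the median AgRP-Gq;POMC-Gi nucleus 1695 and 1853, with mitochondrial medians between 0.232% and 0.376%. No microglia barcode was shared between libraries. *Xist*, the RNA of the inactive X chromosome in females, was seen in 59.0% and 36.9% of control microglia and in 67.1% and 1.25% of AgRP-Gq;POMC-Gi microglia. A UMI of any of 4 Y-linked genes was seen in 26.2%, 31.9%, 14.7% and 50.8% in the same order, and at most 5 nuclei of a library held both. AgRP-Gq;POMC-Gi replicate 2 thus held almost no *Xist*, whereas the other 3 libraries held nuclei of either kind. *Ttr*, a choroid plexus transcript, stood at 11.5 and 4589 CPM (UMIs per 1000000 of a library's microglia UMIs) in controls, against 33.0 and 2914 CPM for AgRP-Gq;POMC-Gi, so it was high in both libraries numbered 2. The part of sex and of *Ttr* in the group differences below was not tested.

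The 4 markers of the annotation had their highest mean level in microglia among the 14 cell types, which describes the rule and is no independent test of it. *Tmem119*, a transmembrane protein that tells microglia from other macrophages, had 165 and 145 CPM in controls, against 137 and 162 CPM for AgRP-Gq;POMC-Gi. The next cell type, fibroblasts, had 16.2 ± 4.66 CPM (SD, n = 4 libraries), and border macrophages had 10.5 ± 13.1 CPM. *P2ry12*, the ADP receptor of process movement, stood at 796 and 678 against 1076 and 899.8 CPM, and at 252 ± 42.3 CPM in border macrophages. *Cx3cr1*, the fractalkine receptor, stood at 1049.5 and 897 against 1074 and 1318 CPM, and at 190.4 ± 64.2 CPM in border macrophages, with ependymal cells next highest at 214 ± 47.3 CPM. *Csf1r* had 913 and 923 against 880.1 and 906 CPM in microglia and 608 ± 59.8 CPM in border macrophages, so this receptor set the macrophages apart from other cells but separated the macrophage types little. In oligodendrocytes, the most numerous type, the 4 genes had between 0.336 and 16.0 CPM.

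**Figure D1:**
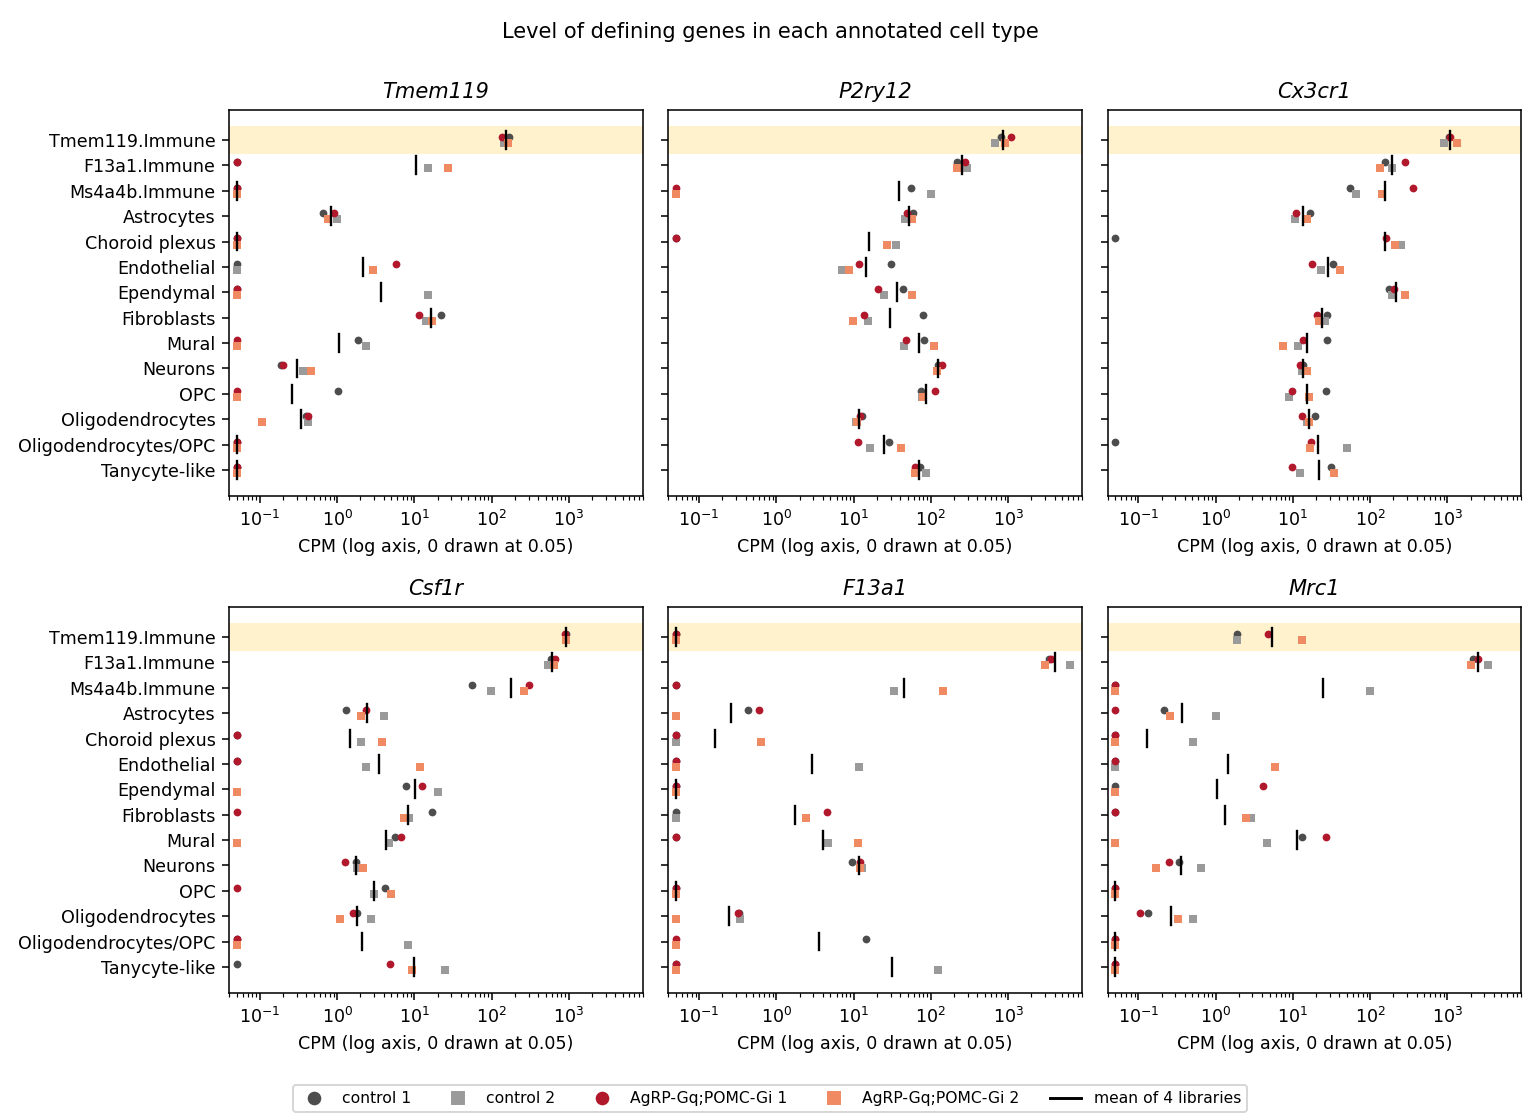
Level of 6 defining genes in the 14 annotated cell types, as CPM of UMIs summed per library on a log axis (0 drawn at 0.05), with 1 point per library and a bar at the mean of 4 libraries. *Tmem119*, *P2ry12*, *Cx3cr1* and *Csf1r* are highest in the shaded row of microglia (Tmem119.Immune), *Csf1r* is next highest in F13a1.Immune nuclei (608 against 906 CPM), and *F13a1* and *Mrc1* are high in F13a1.Immune nuclei, with *F13a1* at 0 in microglia of all 4 libraries.

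Nucleus by nucleus, at least 1 of the 4 markers had a UMI in 948 microglia (97.8%), at least 2 in 855 (88.2%) and all 4 in 130 (13.4%). None was seen in 21 nuclei (2.17%). *Tmem119* was seen in 25.5% of microglia (exact 95% interval 22.8% to 28.4%) against 0.0892% of oligodendrocytes, *P2ry12* in 74.2% against 2.61%, *Cx3cr1* in 80.0% against 4.18% and *Csf1r* in 78.3% against 0.488%. Other types came closer: *P2ry12* was seen in 58.7% of neurons, whose median was 8704 UMIs, and *Cx3cr1* in 58.6% of choroid plexus and 42.0% of ependymal nuclei (medians 4291 and 2720.5 UMIs). Oligodendrocytes had the deeper nuclei (median 2460 against 1871 UMIs), and with every nucleus thinned to 800 UMIs the shares of microglia became 13.3%, 49.0%, 56.1% and 51.0% in the same order. The intervals cover counting error only. Over a wider list of 24 genes of resting microglia, the median nucleus held 23 UMIs (range 0 to 71), and 1 nucleus held none. UMIs of 7 of the 12 listed border macrophage markers (*Mrc1*, *F13a1*, *Cd163*, *Lyve1*, *Pf4*, *Ms4a7* and *Cbr2*) were absent from 958 nuclei and reached at most 2 in the others. The full list adds *Stab1*, *Dab2*, *Maf*, *Clec12a* and *Cd209f*. A UMI of any of its 12 genes was seen in 72.5% and 74.2% of control microglia and in 65.8% and 61.25% of AgRP-Gq;POMC-Gi microglia.

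The marker genes lie on different chromosomes of GRCm38 in the GENCODE M21 annotation. *Tmem119* (ENSMUSG00000054675) covers chromosome 5, 113793729 to 113800516, on the minus strand, *P2ry12* (ENSMUSG00000036353) covers chromosome 3, 59216272 to 59262871, and *Cx3cr1* (ENSMUSG00000052336) covers chromosome 9, 119901616 to 120069879. *Inpp5d* (ENSMUSG00000026288), which encodes the phosphatase SHIP1 that restrains signals of myeloid receptors, covers chromosome 1, 87620312 to 87720507. It had 2753 and 2612 against 2779 and 2542 CPM in microglia and was seen in 96.8% of them, with 1169 CPM in border macrophages and 0.489 CPM in oligodendrocytes. Myeloid genes are classically bound by the transcription factor PU.1, which recognises a purine-rich core. The window from 250 bases before to 50 bases after the RefSeq start site (GRCm38.p6) is shown for *P2ry12* and *Inpp5d* because both are microglial here and both hold the letters AGGAAGT of that core, printed in capitals on whichever strand they lie. The windows are chr3:59262936-59263235 on the minus strand for *P2ry12* and chr1:87620062-87620361 on the plus strand for *Inpp5d*, 5′ to 3′ of the gene.
P2ry12: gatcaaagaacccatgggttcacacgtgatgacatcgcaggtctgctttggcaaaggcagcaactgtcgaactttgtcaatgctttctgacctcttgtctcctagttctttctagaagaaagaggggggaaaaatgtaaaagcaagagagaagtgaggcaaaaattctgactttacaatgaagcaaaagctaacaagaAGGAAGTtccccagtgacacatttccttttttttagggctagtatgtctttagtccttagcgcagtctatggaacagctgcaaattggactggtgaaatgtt
Inpp5d: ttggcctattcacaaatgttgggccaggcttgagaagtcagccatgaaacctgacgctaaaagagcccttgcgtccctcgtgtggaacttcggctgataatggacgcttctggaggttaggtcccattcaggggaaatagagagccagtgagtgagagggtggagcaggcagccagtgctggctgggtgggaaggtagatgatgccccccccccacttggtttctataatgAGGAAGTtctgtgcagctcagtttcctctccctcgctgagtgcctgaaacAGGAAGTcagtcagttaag
In *P2ry12* the match begins 52 bases before the start site, at position -52. In *Inpp5d* matches begin at positions -19 and 31, on either side of it. The window of *Cx3cr1* held no match. Searched on both strands, AGGAAGT occurred in 85 of 279 genes (30.5%) that were at least 4-fold higher in microglia than in every non-immune type and had a RefSeq promoter, and in 10.7% of all 27025 genes with one. Counted over promoters, the shares were 25.1% of 358 and 9.35% of 32851. The longer GAGGAAGT, which contains AGGAAGT, occurred in 14.3% of those 279 genes and in 3.69% of all genes. In the list of resting microglia genes, AGGAAGT occurred in 4 of 18 genes with a promoter (22.2%) and GAGGAAGT in 0 of 18. A match describes letters and shows no binding.

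Genes that set microglia apart are given as a description, with no test, because the annotation rests on expression. Of 6934 genes with at least 50 UMIs in microglia, 61 (0.880%) had a mean CPM at least 4-fold that of each of the 13 other cell types. The type with the next highest level was border macrophages for 28 of them and the lymphoid nuclei annotated Ms4a4b.Immune for 6. With each other type raised to the level of 3 UMIs over its libraries, which is 18.1 CPM in border macrophages and 29.1 CPM in lymphoid nuclei, 31 of the 61 kept a 4-fold ratio, so for low genes the small types set the limit. Against non-immune types alone, 376 genes passed the same ratio. *Tmem119* and *Sall1* kept the ratio at that floor. *Sall1*, the transcription factor that maintains microglial identity, had 189.9, 213, 227 and 239 CPM across the libraries, with 11.4 CPM in border macrophages and 26.9 ± 3.24 CPM in oligodendrocytes. *P2ry13*, a second ADP receptor, had 61.4, 60.9, 70.8 and 54.7 CPM and 1 UMI in all border macrophages, a ratio that the floor brings to 2.13. *Slc2a5*, which encodes the fructose transporter GLUT5, had 86.3, 64.7, 68.4 and 101 CPM and 1.46 ± 2.91 CPM in endothelial cells, the next type, from 1 UMI. Its ratio at the floor was 2.75, under 4-fold.

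*Il6*, the gene of the cytokine interleukin-6, was seen in few nuclei. Its UMIs numbered 16, 26, 14 and 10 in the 4 libraries and came from 58 microglia (5.99%), whereas fibroblasts, the next type, held 1 UMI and all non-immune types together held 12. At 33.8 CPM it was 1.16-fold the floor of lymphoid nuclei, so its level relative to the other immune types was not resolved. The groups overlapped, with 30.7 and 49.5 against 33.0 and 21.9 CPM. The crystallin gene *Cryba4* had 66 UMIs in 60 microglia (33.9 ± 5.88 CPM, SD, n = 4) and the calpain protease gene *Capn3* had 686 UMIs in 435 microglia (354 ± 54.8 CPM), with 3 UMIs in border macrophages. Several of the 20 leading genes carried only locus names, among them *Gm43821* with 104 UMIs in 87 microglia and 12 UMIs in all non-immune types. At the floor the ratio was 1.17 for *Cryba4* and 1.81 for *Gm43821*, so these were not resolved from the small immune types either, whereas *Capn3* kept 12.2.

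Border macrophages, annotated F13a1.Immune, were the nearest type and numbered 88 nuclei with 165522 UMIs, so 3 UMIs correspond to 18.1 CPM there and to 1.56 CPM in microglia. Of 7328 genes with at least 50 UMIs in both types together, 154 were at least 4-fold higher in microglia and 120 at least 4-fold higher in border macrophages. The microglial side was led by *Cacnb2*, a calcium channel subunit, with 773 ± 86.5 CPM against 21.6 ± 28.2 CPM. *Nav3* and *Nav2*, which encode neuron navigator proteins, had 2456 ± 101 and 3194 ± 308 CPM in microglia and 81.5 ± 63.1 and 189.6 ± 249.6 CPM in border macrophages. *Csmd3* had 5228 ± 551 CPM in microglia and 261 ± 223 CPM in border macrophages. These long genes are also transcribed in neurons and glia, and *Csmd3* had 1895 CPM in neurons and 1981 CPM in oligodendrocytes.

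The other side was led by *F13a1*, coagulation factor XIII, with 747 UMIs in border macrophages and 0 in microglia. *Cd163*, a haemoglobin scavenger receptor, had 1059.8 ± 349 CPM against 1 UMI in all microglia, *Mrc1*, the mannose receptor, 2508 ± 569 CPM against 5.42 ± 5.31 CPM, and *Ms4a4a* 942 ± 636 CPM against 0. The complement initiators *C1qa*, *C1qb* and *C1qc* had 645, 651 and 702 CPM in microglia and 835, 739 and 850.1 CPM in border macrophages. Over the 15 complement genes the summed level was 3251 to 3652 CPM in microglia and 4041 CPM in border macrophages, and *C3* was at 0 in microglia.

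**Figure D2:**
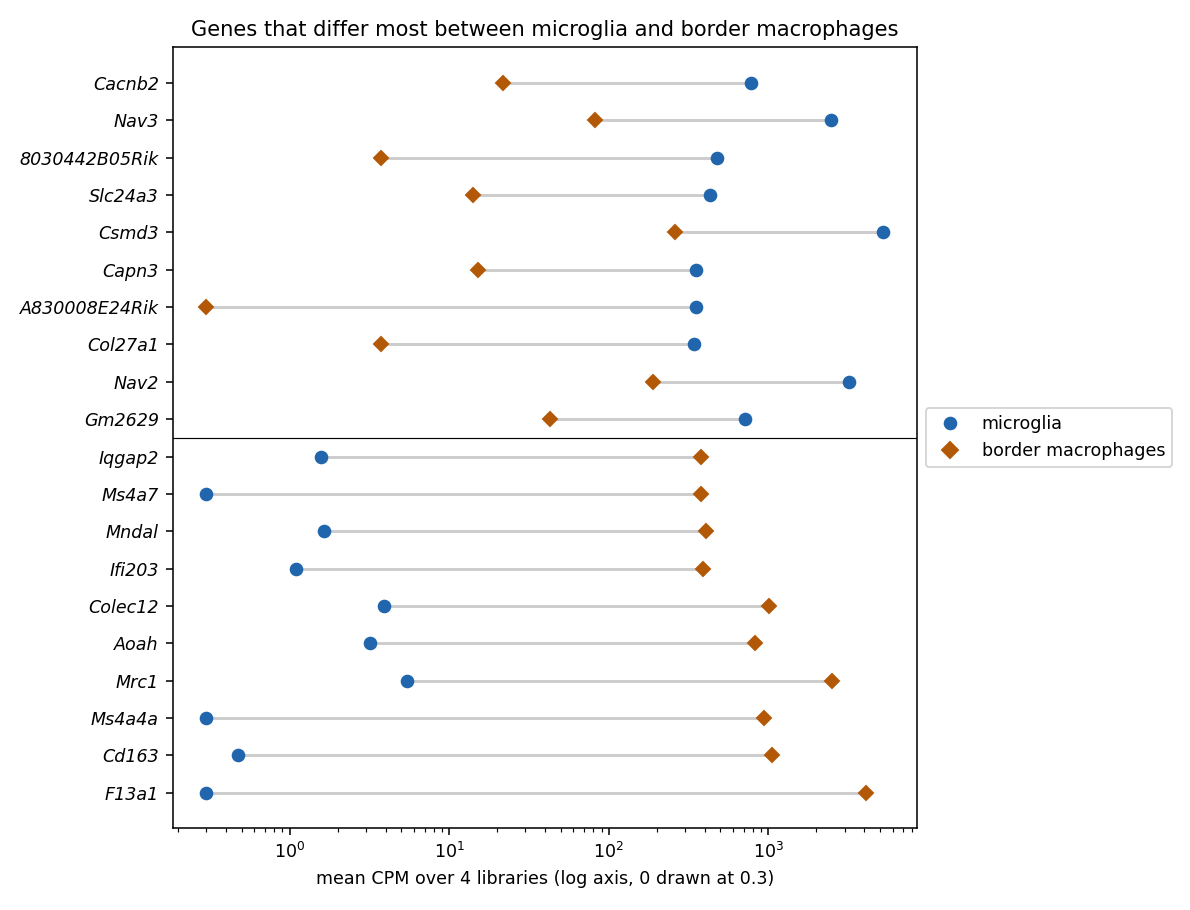
Mean CPM over 4 libraries (log axis, 0 drawn at 0.3) of the 10 genes with the highest and the 10 with the lowest ratio of microglia (circles) to border macrophages (diamonds). *Cacnb2*, *Nav3* and *Csmd3* lie on the microglial side, and *F13a1*, *Cd163* and *Mrc1* on the other, where microglia are near or at 0.

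The programmes of microglia were next read by the roles of their genes. Among growth factor receptors, *Tgfbr1*, the TGF-beta receptor kinase, had 2882, 2866, 2824 and 2936 CPM across the libraries and its partner *Tgfbr2* had 411, 385, 469.5 and 352 CPM. The colony-stimulating factor receptor *Csf3r* had 700.3, 685, 573 and 689.6 CPM. All 3 receptors were even between libraries, with ranges that overlapped between the groups. Among lineage factors, *Mef2a* had 2617, 2433, 2999 and 2406 CPM, *Mef2c* 1197, 1232, 1639.8 and 1357 CPM, *Ikzf1* 1301, 1089, 1123 and 1016 CPM and *Runx1* 1082, 981, 939 and 987 CPM. Microglia and border macrophages shared *Runx1* (999 CPM in the latter), whereas *Ikzf1* had 249 CPM in border macrophages. Among nucleotide sensors and enzymes, the ectonucleotidase *Entpd1* (CD39) had 954, 1026, 799.8 and 849 CPM and the UDP receptor *P2ry6* 386, 297, 477 and 333 CPM.

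Of all 32285 genes, 6588 had a UMI in at least 5% of microglia. Of 26 genes known from disease-associated microglia, 25 were present in the files and 12 did, among them the protease *Ctsd* (518, 546, 406 and 482 CPM) and the lipid carrier *Apoe* (499, 487, 307 and 418 CPM). *Gpnmb* of that list was at 0. *Apoe* had 5642 CPM in border macrophages and 1906 CPM in astrocytes. Of 25 interferon response genes 8 reached 5% of nuclei, and *Rsad2* and *Ifi44* were at 0. Of 16 proliferation genes only *Stmn1*, which is also a cytoskeletal gene, reached 5%, and *Top2a*, *Bub1*, *Cenpe*, *Birc5* and *Ccnb1* were at 0. Of 34 receptors for transmitters, peptides and hormones 12 reached 5%. *Mc3r*, *Mc4r* and *Ghsr*, which bind melanocortins and ghrelin, were at 0 in 1926991 UMIs, as were *Mc1r*, *Mc5r*, *Vdr* and *Chrna7*. The mu opioid receptor *Oprm1* had 194, 196, 264 and 193 CPM, against 106 CPM in neurons and 31.3 CPM in border macrophages. The insulin receptor *Insr* had 251, 228, 264 and 239 CPM and the glucocorticoid receptor *Nr3c1* had 311, 248, 208 and 319.6 CPM. No order of the groups was seen in *Insr* or *Nr3c1*, whose libraries overlapped.

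Microglia made up 2.51% and 2.59% of kept control nuclei, against 2.31% and 2.41% of kept AgRP-Gq;POMC-Gi nuclei. The exact 95% intervals were 2.21% to 2.84% and 2.29% to 2.92% in the control libraries, and 2.02% to 2.63% and 2.12% to 2.73% in the others. The difference of -0.186 percentage points reached p = 0.333 in an exact two-sided permutation test, the smallest p that 2 against 2 libraries allow. Over non-neuronal nuclei the shares were 3.36% and 3.55% against 3.73% and 3.79%, a difference of 0.305 percentage points in the opposite direction. Neurons made up 25.4% and 27.2% of the kept control nuclei and 38.0% and 36.5% of the AgRP-Gq;POMC-Gi nuclei, so the sign of the difference depended on the denominator. Shares of sorted nuclei do not give cell numbers in tissue.

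Expression of microglia in AgRP-Gq;POMC-Gi mice was then compared with that in control mice. Of 6588 genes seen in 5% or more of microglia, none passed an adjusted p of 0.05 (0% called) in edgeR's quasi-likelihood test on the sums of 2 libraries per group, nor did any in DESeq2. At an unadjusted p under 0.05, 220 genes (3.34% of those tested) were lower and 171 (2.60%) higher in AgRP-Gq;POMC-Gi libraries by edgeR, and 61 genes in all by DESeq2. Both AgRP-Gq;POMC-Gi libraries lay below both control libraries in 1221 genes (18.5%) and above them in 1120 (17.0%). The median log2 fold change over all genes tested was -0.00125. Members of gene lists are therefore given below by their values, with these shares as background, and none of their differences passed the adjusted test. The filter on genes pooled all libraries, so a gene near 5% could reach it mainly through the group where it was higher. In summed nuclei, fewer nuclei in a state and less RNA per nucleus cannot be told apart.

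**Figure D3:**
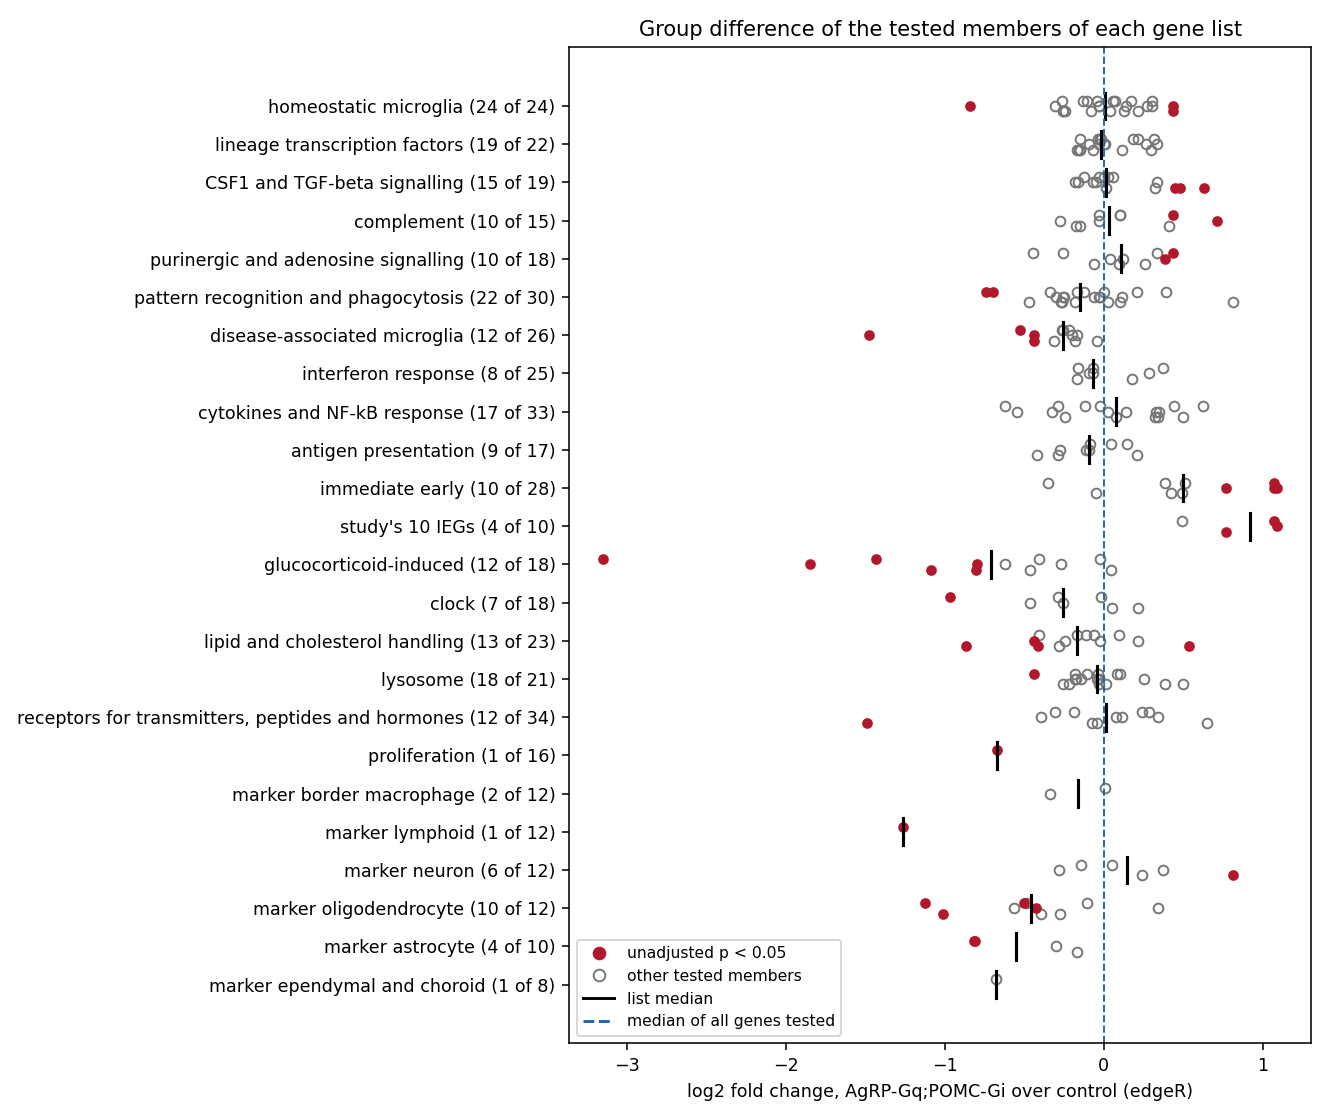
Log2 fold change (AgRP-Gq;POMC-Gi over control, edgeR) of each tested member of the gene lists, with the number tested of the number listed in brackets, filled points for unadjusted p under 0.05, a bar at the list median and a dashed line at the median of all genes tested. The tested glucocorticoid-induced genes have a median of -0.71 and reach -3.15, the tested genes among the study's 10 IEGs have a median of 0.92, and resting microglia genes are centred near 0. No point passes an adjusted p of 0.05.

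Targets of the glucocorticoid receptor provided 3 of the 10 lower genes with the smallest p (*Tsc22d3*, *Zbtb16* and *Ddit4*). Of 18 listed glucocorticoid-induced genes 12 were tested and 11 were lower in AgRP-Gq;POMC-Gi microglia, 8 without overlap of the libraries (background 18.5%). An unadjusted p under 0.05 was found for 6, all lower (background 3.34%). The median log2 fold change of the 12 was -0.71. *Zbtb16* and *Ddit4* reached the filter of 5% of microglia only through the control libraries, so their lower direction was in part set by it. Both are in these counts and in the median. Without a filter on genes, 18 members were tested, 6 were lower at an unadjusted p under 0.05 and the median was -0.65. With a filter of 10% of nuclei, 6 were tested, 3 were lower at that p and the median was -0.60. Lists were chosen with earlier results of these data known, so these counts are not taken as independent evidence of a direction. *Fkbp5*, a chaperone that dampens the receptor and is a standard readout of its activity, had 1794 and 1596 CPM in controls, against 1149 and 420.4 CPM for AgRP-Gq;POMC-Gi. Its libraries did not overlap, although AgRP-Gq;POMC-Gi replicate 1 lay closer to the controls than to replicate 2 (log2 fold change -1.08, SE 0.32, adjusted p = 0.74). *Tsc22d3*, which encodes the glucocorticoid-induced leucine zipper GILZ, had 209 and 150.4 against 73.1 and 59.1 CPM. Both control libraries lay above both others by a margin wider than the spread within either group (-1.43, SE 0.26, unadjusted p = 5.7e-05, adjusted p = 0.29).

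*Zbtb16*, a zinc finger repressor, had 127 and 40.0 against 11.8 and 6.57 CPM, from 66, 21, 5 and 3 UMIs in the 4 libraries. Its log2 fold change was -3.15 (SE 0.62, adjusted p = 0.29), and control replicate 1 was the library with most of these UMIs. *Zbtb16* was low in microglia, with a mean of 46.2 CPM and a UMI in 6.91% of nuclei. It had 592 CPM in oligodendrocytes, where 69.5% of nuclei held a UMI, and 474 CPM in border macrophages. The part of RNA from other cells in its difference was not tested. *Ddit4*, an inhibitor of the mTOR pathway, had 49.9 and 41.9 against 16.5 and 8.76 CPM from 26, 22, 7 and 4 UMIs (log2 fold change -1.85, SE 0.44, adjusted p = 0.46). *Sgk1*, a kinase induced by corticosteroids, had 177 and 158 against 104 and 87.6 CPM (-0.80, SE 0.22, adjusted p = 0.64), with both groups tight and separate. *Tle3*, a transcriptional corepressor, had 74.8 and 49.5 against 44.8 and 26.3 CPM, and its adjusted p was 0.83. Among other members that were tested, *Sesn1* had 280.1 and 268 against 189 and 265 CPM, and *Mertk*, a phagocytic receptor kinase, had 2107 and 2085 against 2227 and 1857 CPM with overlap. The receptor gene itself, *Nr3c1*, differed by -0.08 (SE 0.20) on the log2 scale.

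The count rests in part on control replicate 1. Without it, *Zbtb16* and *Ddit4* did not reach the filter on genes, 10 members were tested, 3 had an unadjusted p under 0.05 and the median was -0.37, whereas without control replicate 2 it was -0.74 and *Zbtb16*, *Tsc22d3* and *Fkbp5* passed the adjusted threshold. Leaving out an AgRP-Gq;POMC-Gi library moved the median too, to -1.12 without replicate 1 and to -0.48 without replicate 2, and the log2 fold change of *Fkbp5* was then -2.05 and -0.50. Leaving out nuclei with over 2 times the median UMI count of their library, or the 10% of microglia with most neuron and oligodendrocyte UMIs, brought *Tsc22d3* and *Zbtb16* to an adjusted p between 0.0357 and 0.0360. *Fkbp5* was also lower in other cells of the same 4 libraries, at a mean of 2171 CPM in border macrophages of controls, against 778 CPM in those of AgRP-Gq;POMC-Gi mice, and with log2 fold changes of -1.78 (SE 0.20) in oligodendrocytes and -3.04 (SE 0.21) in astrocytes. *Tsc22d3* stood at -0.39 (SE 0.10) in oligodendrocytes and -0.76 (SE 0.13) in astrocytes, and *Zbtb16* at -1.17 (SE 0.21) and -1.04 (SE 0.12). These types share their libraries with microglia, so they are no separate samples. The difference of the group effect between microglia and astrocytes was 1.74 for *Fkbp5* (adjusted p = 0.11) and -1.84 for *Ddit4* (adjusted p = 0.49), and against oligodendrocytes it was -1.06 for *Tsc22d3* (adjusted p = 0.49).

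**Figure D4:**
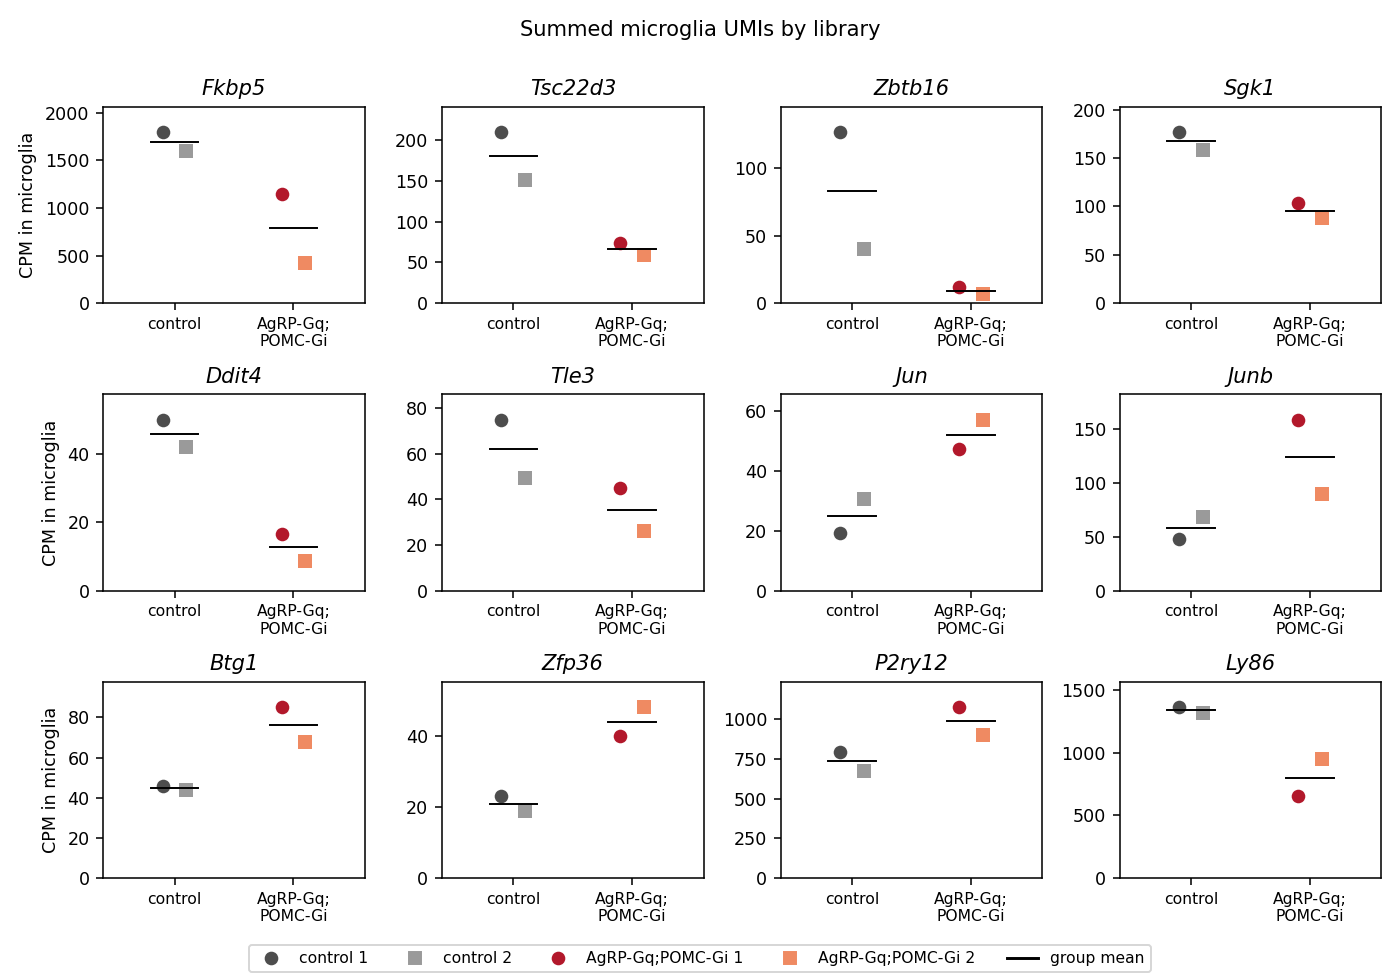
CPM of 12 genes in microglia, with 1 point per library, bars at the group means and a linear axis from 0. The 6 glucocorticoid-induced genes (*Fkbp5* to *Tle3*) and *Ly86* are lower in both AgRP-Gq;POMC-Gi libraries than in both controls, and *Jun*, *Junb*, *Btg1*, *Zfp36* and *P2ry12* are higher, none past an adjusted p of 0.05.

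The glucocorticoid receptor binds DNA as a dimer at paired short sites that the letters ACANNNTGT abbreviate. In the windows around the start sites, these letters occurred in 2 of 17 glucocorticoid-induced genes with a RefSeq promoter (11.8%) and in 7.90% of the 27025 genes counted. The promoter of *Sgk1* with a match (1 of 6 listed) is shown, chr10:21978422-21978721 on the plus strand, since the gene was lower in both libraries. Capitals mark the match, which begins at position -127.
Sgk1: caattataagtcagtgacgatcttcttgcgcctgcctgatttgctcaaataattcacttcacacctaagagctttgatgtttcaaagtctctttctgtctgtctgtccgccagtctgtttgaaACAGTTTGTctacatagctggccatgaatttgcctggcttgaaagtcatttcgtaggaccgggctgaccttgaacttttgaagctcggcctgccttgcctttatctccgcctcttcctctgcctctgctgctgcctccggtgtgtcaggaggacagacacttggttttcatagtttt
The window of *Fkbp5* held no match, which says nothing of elements farther away.

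Immediate early genes (IEGs), which cells transcribe within minutes of a stimulus and which the study used to find activated neurons, were examined next. Of the study's 10 IEGs, 4 were tested in microglia. All 4 were higher in both AgRP-Gq;POMC-Gi libraries than in both controls (background 17.0%), and 3 had an unadjusted p under 0.05 (background 2.60%). The study used this list on these samples to rank neuronal clusters, and whether it was chosen on them is not stated, so it is not taken as independent evidence of a direction. The count of 3 became 1 without control replicate 1, 1 without AgRP-Gq;POMC-Gi replicate 1, 2 without either of the other libraries and 1 with DESeq2. *Junb*, a subunit of the AP-1 factor, had 48.0 and 68.5 CPM in controls, against 158 and 89.8 CPM for AgRP-Gq;POMC-Gi (log2 fold change 1.09, SE 0.33, adjusted p = 0.78), and the log2 fold change was 0.58 without AgRP-Gq;POMC-Gi replicate 1. *Jun*, the core subunit of AP-1, had 19.2 and 30.5 against 47.2 and 56.9 CPM from 10, 16, 20 and 26 UMIs (1.07, SE 0.37, adjusted p = 0.81). *Btg1*, an antiproliferative gene, had 46.0 and 43.8 against 84.9 and 67.9 CPM, and the synaptic scaffold gene *Homer1* had 21.1 and 32.4 against 37.8 and 37.2 CPM. The groups did not overlap for any of the 4, but the counts were small. Neuronal IEGs were near the floor, with 1, 1, 4 and 2 UMIs of *Fos* in the 4 libraries. Over cell types with at least 10 UMIs of a gene, microglia included, *Junb* and *Homer1* were each higher in 9 of 12. *Jun* was higher in 7 of 12 and *Btg1* in 7 of 13, with lower means for AgRP-Gq;POMC-Gi in the rest. All of these types come from the same 4 libraries.

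At least 1 UMI of the study's 10 IEGs was seen in 26.6% and 31.2% of control microglia and in 46.2% and 35.8% of AgRP-Gq;POMC-Gi microglia, although the control nuclei were deeper. On a wider list of 28 immediate early genes 10 were tested, 8 were higher and 2 lower, and the median was 0.50. Of these, 4 had an unadjusted p under 0.05, all higher (background 2.60%). Leaving out a library gave 2 or 3 in place of 4, and DESeq2 gave 1. A UMI of this wider list was seen in 68.4% and 65.4% of control microglia, against 70.2% and 67.5% of the others, so for it the groups overlapped. The fourth was *Zfp36*, an mRNA-binding protein that shortens the life of cytokine transcripts, at 23.0 and 19.0 against 40.1 and 48.2 CPM (1.07, SE 0.37, adjusted p = 0.81). *Rhob*, a small GTPase, had 125 and 135 against 104 and 98.5 CPM, and *Btg2* had 99.8 and 76.2 against 99.1 and 70.1 CPM, so not all members pointed upward. With DESeq2, 1 of the 10 genes tested had an unadjusted p under 0.05. *Tnf*, the gene of tumour necrosis factor, which was chosen after its values were seen, had 1, 1, 11 and 6 UMIs in the 4 libraries, too few to be tested with the other genes. The AP-1 letters TGAGTCA, searched on both strands, occurred in the promoter windows of 0 of 23 counted genes on the wider list and of 5.95% of all genes counted.

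Genes of resting microglia were spread around 0. All 24 were tested, 12 were lower and 12 higher, and the median log2 fold change was 0.0045. A total of 3 had an unadjusted p under 0.05, 1 lower and 2 higher (background 3.34% and 2.60%). Without either control library the count was 1, a lower gene, so *P2ry12* and *Itgam* no longer had an unadjusted p under 0.05. *P2ry12* was higher after the manipulation (0.43, SE 0.17, adjusted p = 0.82), with the values given above and no overlap. *Itgam*, the integrin subunit CD11b that forms complement receptor 3, had 361 and 387 against 425 and 585 CPM (0.44, SE 0.17, adjusted p = 0.82). *Crybb1*, a crystallin gene of resting microglia, was lower at 161 and 156 against 101 and 74.4 CPM (-0.84, SE 0.24, adjusted p = 0.64). *Tmem119*, *Csf1r* and *Selplg* differed by between -0.26 and -0.03, each by less than 2 of its standard errors.

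Genes of disease-associated microglia were lower in all 12 tested cases, with a median of -0.26 and 4 at an unadjusted p under 0.05 (background 3.34%). *Apoe* (499 and 487 CPM against 307 and 418 CPM), *Cd9*, a tetraspanin (149.7 and 181 against 92.0 and 136 CPM), *Ctsz*, a lysosomal protease (226 and 198 against 129.8 and 182 CPM), and *Fabp5*, a fatty acid carrier (51.8 and 43.8 against 4.72 and 28.5 CPM), were these 4, with adjusted p between 0.81 and 0.82. AgRP-Gq;POMC-Gi replicate 1 was the lowest library for each. Without it, none of the 12 had an unadjusted p under 0.05 and the median was -0.14. The count was 1 without either control library and 1 with DESeq2, and it was 2 without the 10% of nuclei with most neuron and oligodendrocyte UMIs. Without AgRP-Gq;POMC-Gi replicate 2 it stayed at 4, with a median of -0.51. AgRP-Gq;POMC-Gi replicate 1 also had the fewest UMIs per nucleus, and the part of depth was not tested. *Apoe*, *Cd9* and *Fabp5* are transcribed in oligodendrocytes or astrocytes too, *Fabp5* at 59.8 CPM in the former. The log2 fold change of *Fabp5*, -1.48, was -0.78 without AgRP-Gq;POMC-Gi replicate 1, which held 2 of its UMIs.

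Of 30 genes of pattern recognition and phagocytosis, 22 were tested, 16 lower and 6 higher, with a median log2 fold change of -0.15. The libraries did not overlap for 6 lower genes and 1 higher gene, against 18.5% and 17.0% of all genes tested. *Ly86*, which encodes the partner MD-1 of a Toll-like receptor homologue, had 1362 and 1318 CPM in controls, against 651 and 952 CPM for AgRP-Gq;POMC-Gi (-0.74, SE 0.18, unadjusted p = 0.00084, adjusted p = 0.46). It was seen in 75.0% of microglia and had 1.09 CPM in oligodendrocytes. *Tlr7*, an endosomal sensor of single-stranded RNA, had 397 and 289 against 248 and 173 CPM (-0.70, SE 0.22, adjusted p = 0.81). These were the only ones of the 22 at an unadjusted p under 0.05. Among complement genes *C3ar1*, the receptor for C3a, was higher at 40.3 and 40.0 against 56.6 and 74.4 CPM (0.71, SE 0.31), and *C1qa*, *C1qb* and *C1qc* stood at -0.28, -0.17 and -0.03 with adjusted p of 0.88 or more. Of the purinergic genes *P2rx7*, an ATP-gated channel, was higher at 196 and 198 against 267 and 245 CPM (0.39, SE 0.18, adjusted p = 0.83).

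In the list of CSF1 and TGF-beta signalling, 15 of 19 genes were tested and 3 were higher at an unadjusted p under 0.05 (background 2.60%). *Smad3*, which carries the TGF-beta signal to the nucleus, had 121 and 131 against 177 and 173 CPM, and *Itgav*, the integrin chain that releases active TGF-beta, had 259 and 221 against 311 and 339 CPM. *Csf2rb*, the shared chain of the GM-CSF receptor, had 46.0 and 43.8 against 68.4 and 70.1 CPM. Of the 15, the libraries did not overlap for 4 higher genes, these 3 among them, and for 1 lower gene (background 17.0% and 18.5%). The 3 were picked by their p, and their adjusted p was at least 0.82. Among lipid genes the cholesterol exporter *Abca1* was higher (148 and 162 CPM against 257 and 188 CPM), whereas *Lipa*, the lysosomal acid lipase, was lower (44.1 and 47.6 CPM against 14.2 and 35.0 CPM, and -0.43 on the log2 scale without AgRP-Gq;POMC-Gi replicate 1 but -1.62 without replicate 2), as was *Scd2*, a fatty acid desaturase (242 and 217 CPM against 160.4 and 182 CPM). Of 7 tested clock genes *Nr1d2* was lower (59.5 and 80.0 CPM against 44.8 and 26.3 CPM). No member of 4 further lists had an unadjusted p under 0.05: 19 lineage transcription factors, 17 cytokine and NF-kB genes, 9 antigen presentation genes and 8 interferon genes.

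The 10 smallest p in each direction held further genes seen in microglia, not all of them particular to this type. *Adrb1*, the beta-1 adrenergic receptor through which noradrenaline reaches microglia, had 92.1 and 114 CPM in controls, against 44.8 and 28.5 CPM for AgRP-Gq;POMC-Gi, without overlap (-1.49, SE 0.32, unadjusted p = 0.00037, adjusted p = 0.35). Its level was 0.593 CPM in oligodendrocytes and 30.1 CPM in astrocytes, where it differed by 0.40 (SE 0.17), and the difference of the 2 effects was -1.92 (unadjusted p = 1.4e-05, adjusted p = 0.11). *Sult1a1*, a phenol sulfotransferase, had 138 and 118 against 51.9 and 41.6 CPM (-1.45, SE 0.28, adjusted p = 0.29). *Sult1a1* was lower in 8 of 10 cell types with at least 10 UMIs, microglia included, and higher in 2. The log2 ratio of its group means was -1.43 in astrocytes and -1.31 in oligodendrocytes. Border macrophages had 188 CPM in controls and 225 CPM in AgRP-Gq;POMC-Gi. *Gcnt2*, a glycan-branching enzyme, had 149.7 and 149 against 70.8 and 59.1 CPM, and *Lifr*, the receptor for leukaemia inhibitory factor, 244 and 227 against 139 and 129 CPM. *Nedd4l*, a ubiquitin ligase that *Sgk1* acts on, and *Anapc16*, a subunit of the anaphase-promoting complex, were lower by 0.81 and 1.02 on the log2 scale. *Ntm*, a cell adhesion gene abundant in astrocytes (4915 CPM), had 94.0 and 162 against 49.5 and 17.5 CPM, and its log2 fold change went from -1.93 to -1.09 without the 10% of nuclei with most neuron and oligodendrocyte UMIs. Without AgRP-Gq;POMC-Gi replicate 1 it was -2.89, and without replicate 2 of that group -1.31. In microglia, both control libraries exceeded both others in each of the genes named here, as in 18.5% of all genes tested. These genes were chosen by their p in the same libraries, so this separation adds no evidence.

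At the higher end, *Fbxl7*, an F-box protein of a ubiquitin ligase, had 84.4 and 83.8 against 149 and 232 CPM (1.18, SE 0.24, adjusted p = 0.29), and *Neurl3*, a ubiquitin ligase (77.1 CPM in border macrophages, 0.0166 CPM in oligodendrocytes), had 53.7 and 43.8 against 160.4 and 70.1 CPM, with a log2 fold change of 1.24 that was 0.48 without AgRP-Gq;POMC-Gi replicate 1. *Slk*, a kinase, had 84.4 and 74.3 against 134 and 149 CPM, *Nucb1*, a calcium-binding protein of the Golgi, 19.2 and 17.1 against 56.6 and 37.2 CPM, and the noncoding RNA *Snhg9* 15.3 and 24.8 against 56.6 and 43.8 CPM. Of the 10 genes, *Meg3*, *Snhg11*, *Rbfox1* and *Ptprd* are abundant in neurons, at 9917, 8177, 4403 and 3689 CPM. *Rbfox1* had 123 and 118 against 722 and 129 CPM, so it was high in a single library, AgRP-Gq;POMC-Gi replicate 1. *Ptprd* had 161 and 175 against 302 and 236 CPM, and its log2 fold change went from 0.69 to -0.05 without the 10% of nuclei with most neuron and oligodendrocyte UMIs. Without nuclei of over 2 times the median UMI count, *Meg3* went from 0.81 to 0.13, *Snhg11* from 0.82 to 0.32 and *Rbfox1* from 1.84 to 0.30, and without AgRP-Gq;POMC-Gi replicate 1 *Rbfox1* stood at 0.06.

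UMIs of other cells' markers were present in microglia nuclei, in shares that differed between libraries. The 12 oligodendrocyte markers made up 0.154% and 0.140% of microglia UMIs in controls, against 0.109% and 0.114% for AgRP-Gq;POMC-Gi. Of the 10 tested members 9 were lower, 4 of them at an unadjusted p under 0.05 (background 3.34%). Among these was *Mbp*, a structural gene of myelin, with 267 and 228 against 182 and 166 CPM. With DESeq2, or without control replicate 1, none of the oligodendrocyte markers had an unadjusted p under 0.05. The 10 astrocyte markers made up 0.0710%, 0.0855%, 0.0672% and 0.0444% of UMIs in the 4 libraries, and all 4 tested members were lower. The 12 neuron markers made up 0.0911% and 0.0908% of control UMIs, against 0.117% and 0.0928% for AgRP-Gq;POMC-Gi. Of these, *Meg3* had 205 and 221 against 446 and 296 CPM, and no neuron marker was at 0. Their part in the differences of shared genes was not tested.

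The 12 border macrophage markers summed to between 714 and 849 CPM in microglia, mostly through *Maf* and *Stab1*, against 13317 CPM in border macrophages, and *Pf4*, *Lyve1*, *Cd209f*, *F13a1* and *Ms4a7* were at 0. The 12 lymphoid markers summed to 76.7 and 100.9 CPM in controls, against 51.9 and 37.2 CPM for AgRP-Gq;POMC-Gi, with *Il7r* the largest contributor in each library and *Cd3e*, *Trbc2*, *Nkg7* and *Themis* at 0. The 8 markers of monocytes and neutrophils summed to between 3.81 and 14.2 CPM, with *S100a8* and *Ly6c2* at 0. *Il7r*, the interleukin-7 receptor chain, had 67.2 and 81.9 against 35.4 and 26.3 CPM (-1.27, SE 0.33, adjusted p = 0.56) and was listed at 0 CPM in border macrophages.

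**Figure D5:**
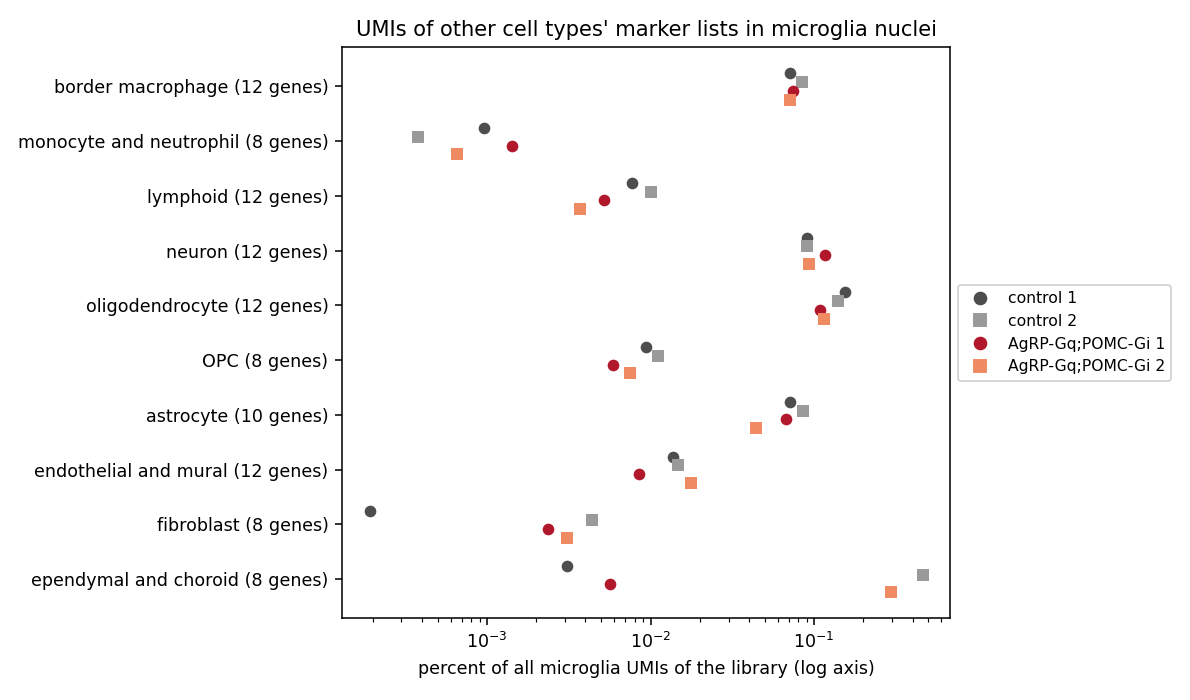
Share of all microglia UMIs in each library that came from marker lists of other cell types (log axis, 1 point per library). The oligodendrocyte list lies lower in both AgRP-Gq;POMC-Gi libraries (0.109% and 0.114%) than in both controls (0.154% and 0.140%), and the ependymal and choroid list, which is mostly *Ttr*, is high in both libraries numbered 2.

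Whether the group effect was particular to microglia was tested against both main glial types. Of 8169 genes tested against oligodendrocytes and 9449 against astrocytes, none had a different group effect at an adjusted p of 0.05 in edgeR (0% called in either), nor in DESeq2. At an unadjusted p under 0.05 there were 455 and 501 genes by edgeR and 71 and 75 by DESeq2. In the same design the group effect itself passed the adjusted threshold in 0 of 6646 genes in oligodendrocytes and in 53 of 8462 genes in astrocytes. The count depended on the filter on genes: with edgeR's own expression filter it was 17 against oligodendrocytes, *Tsc22d3* and *Ntm* among them, and 11 against astrocytes, *Fkbp5* and *Adrb1* among them. Leaving out a library gave 0 to 11 and 5 to 11 genes.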

How the data were processed

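Nuclei were sorted, captured with a droplet 3′ kit and sequenced as 4 libraries. Per the study's methods, the authors aligned reads with Cell Ranger 7.0.0 to GRCm38 (mm10), kept nuclei with at least 800 UMIs, 500 genes and at most 10% mitochondrial UMIs, removed doublets, and annotated clusters in Seurat 4.3.0. The deposited matrices hold raw UMI counts per gene and nucleus, for 44303 barcodes and 32285 genes. Of these barcodes 43398 meet the stated limits and 39461 are marked as kept. No further doublet caller was run.

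UMI counts of microglia were summed per library (423830 to 525204 UMIs), and levels are CPM (counts per 1000000 of those sums), with SD over 4 libraries or, within a group, 2. Groups were compared with edgeR 4.0.16 (quasi-likelihood, TMM scaling, Benjamini-Hochberg adjustment) over all genes seen in 5% or more of microglia, with DESeq2 1.42.0 as an alternative, in R 4.3.3. The test was checked on simulated data, and with 2 libraries per group an absence of called genes does not show that expression was unchanged. Differences of the group effect between cell types were tested as an interaction. Intervals are exact binomial (95%) and cover counting error only.

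Genes named are the 4 markers, the 10 smallest p in each direction, and from each list up to 5 members with the highest level and all with an unadjusted p under 0.05. The 20 highest ratios over other types and the 10 highest and lowest against border macrophages were also named, as were list members at 0. Some genes that the rule names are not reported here. The members and lists were chosen with earlier results of these data known. The authors' own IEG scores in the deposited table were not used. Over all tested genes, the deviations of same-numbered libraries from their group means had r = 0.0722, although *Ttr* was high in both libraries numbered 2, and the labels do not say that numbers mark pairs. Gene positions are from GENCODE M21 and promoters from RefSeq, both GRCm38. Alternatives covered scaling, filters on genes and nuclei, a replicate block, thresholds and leaving out each library.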

Additional observations from a re-analysis of the deposited data

How the results depend on the processing

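In microglia, the count of genes that passed the adjusted threshold was 0 by edgeR, also without TMM factors, without a filter on genes, with other filters and with DESeq2. It was 2 (*Tsc22d3* and *Zbtb16*) without nuclei of over 2 times the median UMI count, and 2, the same genes, without the 10% of nuclei with most neuron and oligodendrocyte UMIs. Leaving out each library gave 0 to 7 genes: 5 without control replicate 1 (*Trpm3*, *Ttr*, *Rbfox1*, *Ntm* and *Enpp2*), 7 without control replicate 2, and 0 without either AgRP-Gq;POMC-Gi library. A lone library is then assumed to vary like the other group. With the replicate number as a block the count was 0 (405 genes at an unadjusted p under 0.05 against 391). The labels do not say that the numbers mark pairs, and *Ttr* followed the number in both groups. The interaction counts rose from 0 to 17 against oligodendrocytes and to 11 against astrocytes with edgeR's own expression filter, and ranged from 0 to 11 and from 5 to 11 when each library was left out. Enriched genes numbered 61, against 33 with at least 200 UMIs, 209 at 2-fold and 14 at 10-fold, 31 with other types at least at 3 UMIs (added after seeing the data), and 45 to 51 without each library. Genes higher in border macrophages numbered 120, against 29 with at least 200 UMIs and 89 to 101 without each library, and those higher in microglia 117 to 149. The share of microglia differed by -0.186 percentage points, -0.234 to -0.139 without each library, and by 0.305 over non-neuronal nuclei. Among 55 named genes under the alternatives, the log2 fold change of *Tmem119* (-0.04) was 0.0139 without nuclei of high UMI count and ranged from -0.133 to 0.0564 when each library was left out (above 0 without the first library of either group), and that of *Ptprd* was -0.0483 without the 10% of nuclei above. The causes were not tested. Shares of microglia clusters were not computed, since all lay in 1 cluster.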
